A study of Mus musculus with 18 samples.

Results

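Hdc and Nrep are the members described here, 2 genes of the 8251 that the array measures through a probe set with a single gene symbol. They were selected on these data because their signal in control kidneys was far lower at 1 month than at 7 days of age, so that change is described below without a test. Each gene has 1 probe set, 93328_at for Hdc and 160522_at for Nrep. Both belonged to the 5744 genes bright enough to be tested.

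The samples were kidneys of mice of the C57 strain, 1 array per mouse and 18 arrays in all, and the values are array intensities on a linear scale. At 7 days there were 6 controls and 6 mice labelled Aprt KO, and at 1 month there were 3 of each; the series text calls the younger mice newly born and the older ones adult, and gives the controls as Aprt+/+ and the mutants as Aprt-/-. The labels pair every KO mouse with a same-sex control from its litter, giving 6 litters (1 to 6) at 7 days and 3 litters (7 to 9) at 1 month. At 7 days, control mice carry the number of their litter, KO 1 comes from litter 2, KO 2 from litter 1, and KO 3 to KO 6 from litters 3 to 6. Aprt encodes adenine phosphoribosyltransferase, which salvages adenine, and mice without it form kidney crystals of an oxidised adenine product. The labels give no treatment, and whether the deletion was made in all cells is not given in the sources used here.

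Of the 27 kidney cell markers listed for a check of the tissue, 22 were on the array and 21 gave a signal above 29 on every array. The value 29 is the 20th percentile of all signals in the table and is used here as the level under which signals have no readable order. The Aprt signal went against the label on 4 arrays, namely 7-day control 1 and control 2, 7-day KO 4 and 1-month KO 1. Genotype results that turned or lost their call without these arrays are therefore given both ways. The Aprt probe set is dim, with signals from 41.9 to 148 over the 18 arrays, beside the mean of 118.6 required for testing. Aoc1, described below, had signals of 811, 915, 2509 and 898 on those 4 arrays, in that order. Each lay outside the Aoc1 range of the other genotype at its age. Whether the labels are right was not tested. Median signals ran from 186.9 to 216.4 over the 7-day arrays and from 160.1 to 178.9 over the 1-month arrays, without overlap. The main tests did not centre arrays on their median. The age changes below, and the shares of all genes higher or lower with age, therefore carry this difference. The highest signal on the 2 arrays of litter 4 was 10167 and 10767, against 25718 to 51453 on the other arrays. No litter was measured at both ages, and any array batch that coincides with age cannot be told apart from age.

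Histamine is made from the amino acid histidine in a single step by histidine decarboxylase, the product of Hdc. It is removed by diamine oxidase, encoded by Aoc1, or by methylation, and mast cells, basophils and gastric enterochromaffin-like cells are its best known makers. The mouse kidney is also known to hold histidine decarboxylase activity, which responds to sex and thyroid hormones. Nrep encodes P311, a small intracellular protein first described in developing neurons and later in smooth muscle cells and myofibroblasts. P311 is known to raise the translation of TGF-beta ligands by binding the translation factor subunit Eif3b.

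The Hdc probe set has a RefSeq promoter entry, which is shown because the gene's level spans the widest range of the 2 members. The 250 bases before the annotated start lie at chr2:126618679-126618928 on the minus strand of GRCm38.p6. Capitals mark a GATA site (TGATAG, 221 to 216 bases before the start), the complement of a steroid receptor half-site (TGTTCT, 137 to 132 bases before it) and a GC box (GGGCGG, 48 to 43 bases before it).

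Hdc promoter: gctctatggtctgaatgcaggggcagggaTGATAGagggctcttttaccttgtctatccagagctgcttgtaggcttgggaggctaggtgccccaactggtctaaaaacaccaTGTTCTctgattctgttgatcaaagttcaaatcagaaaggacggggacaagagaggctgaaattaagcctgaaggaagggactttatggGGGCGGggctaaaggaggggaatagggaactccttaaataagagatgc

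There were 7 motifs searched on both strands in this window and in 32851 RefSeq promoter windows of the same length. The steroid receptor half-site (AGAACA) was in 16.1% of all windows, the GATA site (AGATAA and also AGATAG, and likewise TGATAA as well as TGATAG) in 26.5%, and the GC box (GGGCGG) in 32.7%. An E-box (CANNTG) occurred once, 157 to 152 bases before the start, as it did at least once in 66.2% of windows. The TATA box (TATAAA, 12.4% of windows), the CCAAT box (CCAAT, 33.8%) and the nuclear receptor half-site (AGGTCA, 14.0%) had no match in the Hdc window. These are matches of letters and not measured binding sites.

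Hdc was bright in all 12 mice at 7 days and under 29 in all 6 mice at 1 month. In 7-day controls 1 to 6 the signal was 662, 1039, 2718, 2864, 832 and 754. In 7-day KO mice 1 to 6 it was 920, 831, 1862, 1652, 1032 and 474. In 1-month controls it was 7.59, 11.7 and 12.0, and in 1-month KO mice it was 17.7, 13.7 and 11.1. The 7-day and 1-month ranges did not overlap in either genotype, and the lowest 7-day signal, 474 in KO 6, was 16.4 times the level 29, under which every 1-month signal lay. Within each array, Hdc ranked between percentiles 69.2 and 95.4 of all probe sets at 7 days and between 8.22 and 16.0 at 1 month.

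The mean Hdc signal was 1478 ± 1026 (SD, n = 6) in 7-day controls and 1129 ± 526 (SD, n = 6) in 7-day KO mice. At 1 month it was 10.4 ± 2.44 (SD, n = 3) and 14.1 ± 3.33 (SD, n = 3). A fold against signals this dim has no firm denominator, so the geometric means at 7 days are set against 29. They were 42.2 times that level in controls and 35.3 times in KO mice. On the log2(signal + 29) scale used for all tests, which understates the change of a gene that ends at the floor, the change of Hdc from 7 days to 1 month was -4.996 in controls and -4.61 in KO mice. That placed it in position 1 of 5744 genes ordered by the size of the fall in controls, and in position 2 in KO mice. In the controls 1497 of the 5744 genes fell with age (26.1%) and 851 rose (14.8%), 2348 in all and 1431 without 1-month control 1; because the members were selected on this contrast, nothing is read from their place among them.

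**Figure D1:**
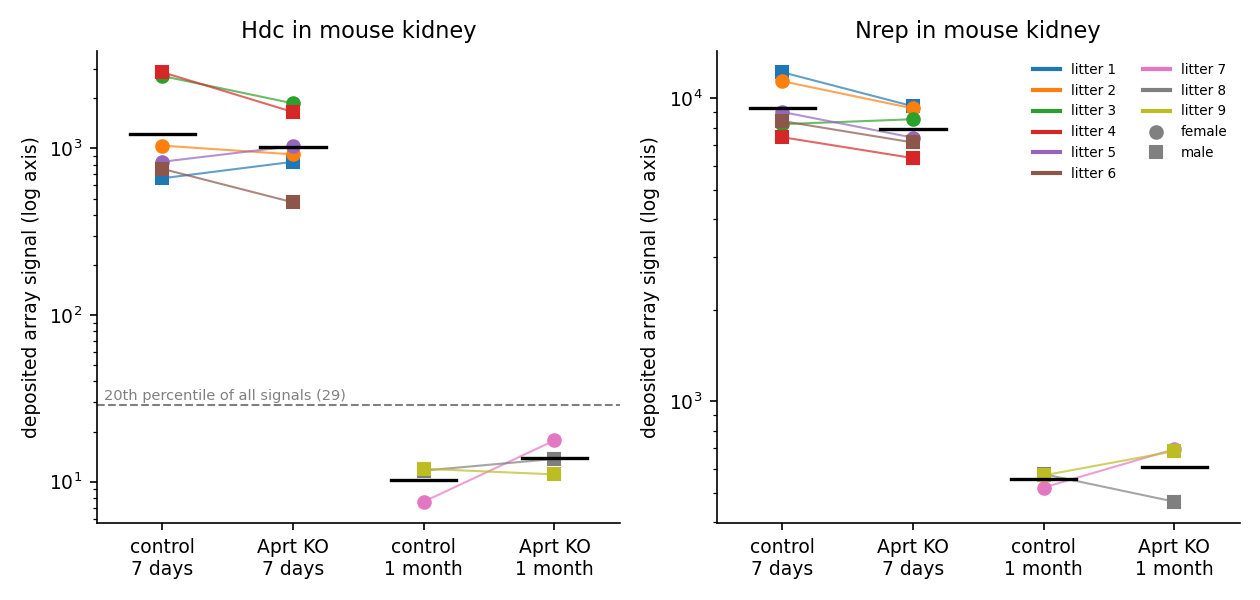
Signal of Hdc and Nrep on each of the 18 arrays (log axis, arbitrary intensity units), by age and genotype, with littermates joined by lines, females as circles, males as squares, bars at the group's geometric mean and a dashed line at 29. Hdc lies between 474 and 2864 at 7 days and under the dashed line at 1 month, while Nrep lies between 6348 and 12186 at 7 days and between 467 and 696 at 1 month.

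Nrep was among the brightest genes of the 7-day kidney and stayed well above the floor at 1 month. In 7-day controls 1 to 6 the signal was 12186, 11382, 8214, 7441, 9010 and 8409. In 7-day KO mice 1 to 6 it was 9259, 9407, 8527, 6348, 7415 and 7148. At 1 month it was 520, 576 and 571 in controls and 696, 467 and 685 in KO mice. Ranges again did not overlap between the ages in either genotype. Because the members were selected on this contrast, nothing is read from that for Hdc or Nrep. The share of all genes without such overlap is not given here. The rank of Nrep within an array ran from percentile 98.6 to 99.4 at 7 days and from 70.6 to 78.5 at 1 month.

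The mean Nrep signal was 9440 ± 1901 (SD, n = 6) in 7-day controls, 8017 ± 1236 (SD, n = 6) in 7-day KO mice, 555 ± 30.8 (SD, n = 3) in 1-month controls and 616 ± 129 (SD, n = 3) in 1-month KO mice. The ratio of the geometric means was 16.7 in controls and 13.1 in KO mice. On the log2(signal + 29) scale the change was -3.98 in controls, position 3 of 5744, and -3.63 in KO mice, position 7. The lowest 7-day signal exceeded the highest 1-month signal 12.9-fold in controls and 9.12-fold in KO mice. In whole kidney RNA, fewer cells that express a gene and less RNA per cell cannot be told apart, here and in all comparisons below.

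**Figure D2:**
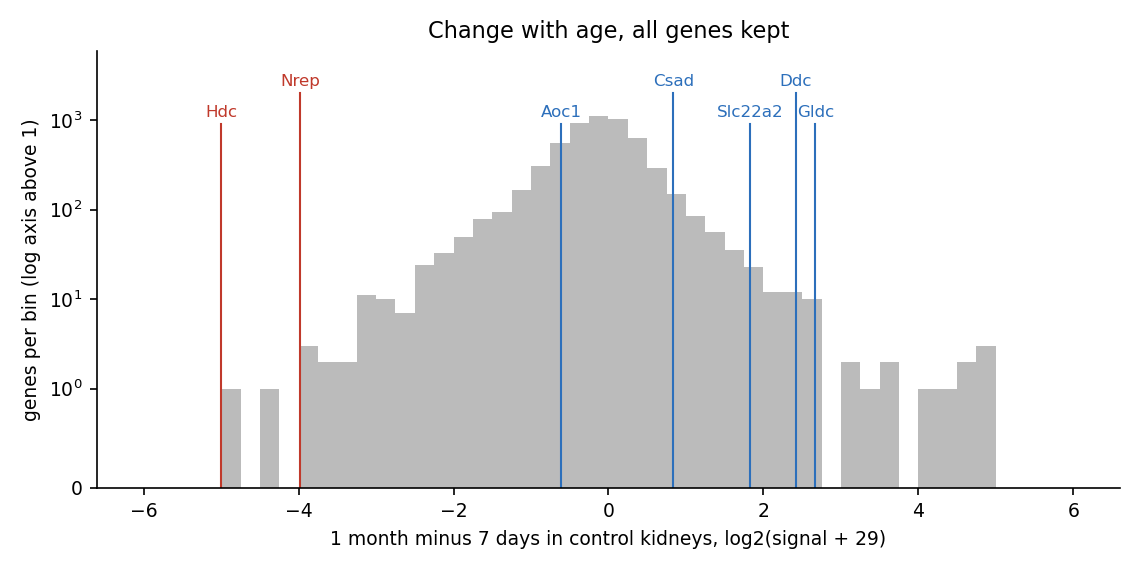
Histogram of the change from 7 days to 1 month in control kidneys, as the difference in log2(signal + 29), for 5744 genes, with Hdc and Nrep marked in red and 5 genes of histamine handling and amino acid decarboxylation in blue. Hdc lies at -4.996 and Nrep at -3.98 in the left tail, while Ddc, Gldc, Csad and Slc22a2 lie to the right of 0 and Aoc1 lies at -0.61.

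No difference by Aprt genotype in either member passed the test, at 7 days or at 1 month. For Hdc at 7 days, KO minus control was -0.25 (SE 0.36, limma adjusted p = 0.976), with a 95% interval of -0.999 to 0.50 on the log2 scale. The pair differences in litters 1 to 6 were 0.32, -0.17, -0.54, -0.78, 0.30 and -0.64, so the KO mouse was lower in 4 of 6 litters. Leaving out 7-day control 4, the highest array, moved the difference to 0.05, with its littermate KO 4 still in the fit. Leaving out the 4 arrays whose Aprt signal went against the label moved the difference to -0.71 (limma adjusted p = 0.690). Over all 42 alternatives the lowest adjusted p was 0.355. Without the 4 arrays, KO 1, KO 2 and control 4 stayed in the fit without their littermates. Litter level and genotype are therefore mixed in both of these values. In litters 3, 5 and 6, whose pairs stayed whole without the 4 arrays, the differences were -0.54, 0.30 and -0.64. At 1 month both groups were under 29, and the difference of 0.13 (SE 0.50, adjusted p = 1.00) has no readable direction. Over all genes tested, 185 (3.22%) were called by genotype at 7 days and 18 (0.313%) at 1 month at an adjusted p under 0.05. With the litter as a fixed block, which sets each KO mouse against its own littermate, these counts were 500 (8.7%) and 79 (1.38%), and neither Hdc nor Nrep was among the called genes. Without the 4 arrays whose Aprt signal went against the label they were 97 and 3.

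For Nrep at 7 days, KO minus control was -0.23 (SE 0.14, limma adjusted p = 0.711), with a 95% interval of -0.52 to 0.07. The pair differences in litters 1 to 6 were -0.37, -0.30, 0.05, -0.23, -0.28 and -0.23, lower in the KO mouse of 5 of 6 litters. With the litter as a fixed block the SE was 0.08 and the adjusted p was 0.116, which still missed the threshold. The brightest values, those of controls 1 and 2, belong to arrays whose Aprt signal went against the label, and without those 4 arrays the difference was 0.0016. That fit kept KO 1, KO 2 and control 4 without their littermates, so litter level and genotype are mixed in its value. In litters 3, 5 and 6, whose pairs stayed whole, the differences were 0.05, -0.28 and -0.23. At 1 month KO minus control was 0.12 (SE 0.20, adjusted p = 1.00), with pair differences of 0.40, -0.29 and 0.25 in litters 7 to 9.

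The genotype difference was also compared between the ages. For Hdc the 1-month effect minus the 7-day effect was 0.38 (SE 0.62, limma adjusted p = 1.00), and for Nrep it was 0.35 (SE 0.24, adjusted p = 1.00). Of all genes, 23 (0.4%) were called in this contrast, and 93 (1.62%) with the litter block, neither member among them. Without the 4 arrays the 1-month minus 7-day value was 0.73 for Hdc and -0.018 for Nrep, and 7 genes were called. This contrast contains the control arrays on which the members were selected and is read with that limit. For Hdc every 1-month signal lay under 29, so the 1-month part of its value has no readable direction. Without the 4 arrays their littermates stayed in the fit without a pair.

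**Figure D3:**
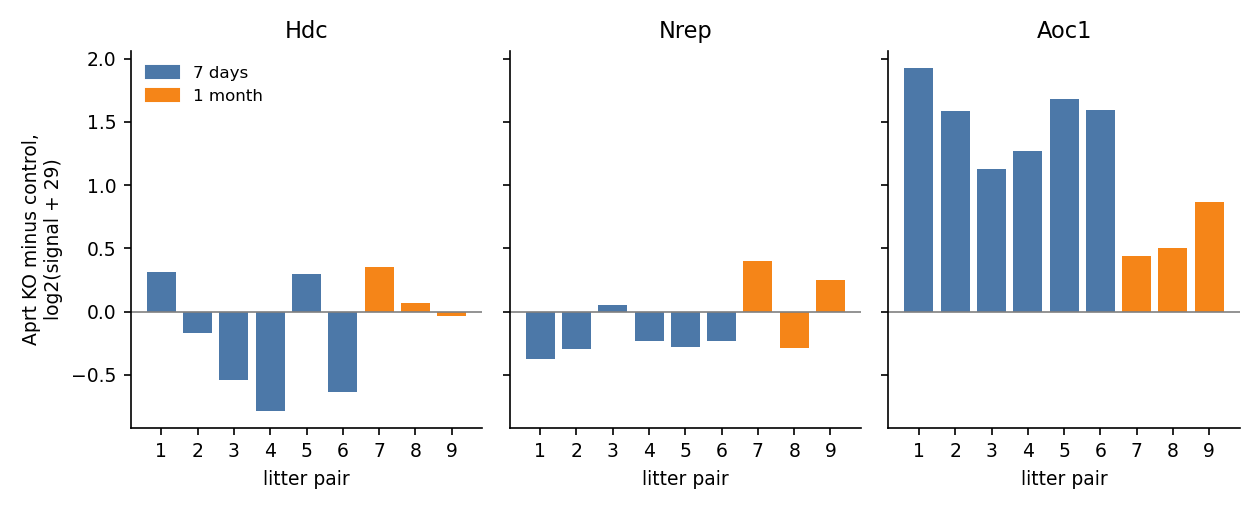
KO minus control difference in log2(signal + 29) within each of the 9 litters for Hdc, Nrep and Aoc1, with 7-day litters in blue and 1-month litters in orange. The Hdc and Nrep differences lie on both sides of 0 at 7 days and at 1 month, and the 6 Aoc1 differences at 7 days all lie above 0.

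Sex is the other factor in the labels, and neither member was called by it. Hdc at 7 days ran from 474 to 2864 with a median of 792 in 6 males and from 832 to 2718 with a median of 1035 in 6 females. Male minus female was -0.35 on the log2 scale (SE 0.36, limma adjusted p = 0.772), with an interval of -1.09 to 0.40. Littermates share their sex and were taken as independent in the sex fits without a litter block. With a litter correlation of 0.57 over the genes, their SEs and intervals may be too narrow. Without litter 3, a female litter, it was 0.06, and without litter 4, a male litter, it was -0.90, neither past the threshold. At 1 month Hdc was under 29 in both sexes, and male minus female was -0.01 (SE 0.53, adjusted p = 0.995). Nrep differed between males and females by -0.10 at 7 days (SE 0.14, adjusted p = 0.842) and by -0.08 at 1 month (SE 0.21, adjusted p = 0.884). By sex, 3 genes (0.0522%) were called at 7 days and 159 (2.77%) at 1 month. Sex was the same within a litter and litter 7 was the 1 female litter at 1 month, so at that age sex and that litter cannot be told apart. With the litter as a random block 23 genes were called at 1 month, and without single 1-month arrays the count was 6 without control 1, 70 without KO 1 and 105 without control 3.

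Hormone receptors and sex-responsive genes were listed because renal Hdc is known to answer to hormones. Of 13 listed receptors and related genes 8 were on the array and 3 were tested. Ghr, the growth hormone receptor, rose with age in controls by 2.27 (SE 0.15, limma adjusted p = 2.32e-09), from a mean signal of 445 to 3111. Dio1, the deiodinase that activates thyroid hormone, rose by 2.25 (SE 0.38, adjusted p = 0.000134). The estrogen receptor genes Esr1 and Esr2 and the progesterone receptor gene Pgr did not reach the signal filter. None of the 3 tested genes was called at 7 days by genotype or by sex, where 3.22% and 0.0522% of all genes were.

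Among 11 tested sex-responsive kidney genes, 5 rose with age in controls, 1 fell and 5 were not called, against 14.8% higher and 26.1% lower over all genes. Cyp2e1, a cytochrome P450, rose by 4.90 (SE 0.20) and Cyp4b1, another, by 4.03 (SE 0.14), while Gusb, the lysosomal beta-glucuronidase, fell by 0.47 (SE 0.12). None of the 11 was called by sex at 7 days, the age at which Hdc was bright, where 0.0522% of all genes were. Calls by sex at 1 month are not given for this list. None of the 11 was called by genotype at either age, where 3.22% of all genes were at 7 days and 0.313% at 1 month. With the litter block, 4 of the 11 were called by genotype at each age, against 8.7% of all genes at 7 days and 1.38% at 1 month. At 7 days Cyp2e1 (0.58, adjusted p = 0.000971) and Gusb (0.35) were higher in KO mice, and Kap (-0.34) and Adh1 (-0.62) were lower. At 1 month Cyp4a14 (2.02) was higher, and Cyp7b1 (-1.16), Odc1 (-0.59) and Hsd17b11 (-0.56) were lower. The list's median age change was 0.83, against -0.11 over all genes.

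The other tested genes of histamine handling rose by genotype (Aoc1) or with age (Slc22a2 and Aldh2). Of 16 listed genes 7 were on the array, and 3 besides Hdc were tested. Aoc1, which degrades histamine and other diamines, had a signal of 811, 915, 798, 1023, 699 and 781 in 7-day controls and 2812, 3168, 1774, 2509, 2308 and 2421 in 7-day KO mice. The groups did not overlap, and the KO mouse was higher in 6 of 6 litters. The shares of all genes with either pattern are not given here. KO minus control was 1.53 (SE 0.12, limma adjusted p = 1.51e-07), and the call held in all 42 alternatives. At 1 month the signal was 654, 499 and 410 in controls and 898, 719 and 773 in KO mice, a difference of 0.60 (SE 0.17) that was not called (adjusted p = 0.239). With the litter as a block its adjusted p was 0.0532 where the block was fixed and 0.0170 where it was random. Aoc1 fell with age in controls by 0.61 (SE 0.15, adjusted p = 0.00317), a call lost when each array was centred on its median.

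The organic cation transporter gene Slc22a2, whose product carries histamine among other cations, rose with age in controls by 1.83 (SE 0.19, limma adjusted p = 4.63e-07), from 1070 ± 254 (SD, n = 6) to 4499 ± 1896 (SD, n = 3). Aldh2, a mitochondrial aldehyde dehydrogenase, rose by 1.51 (SE 0.15, adjusted p = 3.99e-07), and with the litter block it was lower in 7-day KO mice (-0.22, adjusted p = 0.0466). The receptors Hrh1 and Hrh2 were below the filter; their signals were 41 to 92 and 24 to 159 over the 18 arrays. Hal, which routes histidine to degradation in place of histamine, was also below the filter, with group means from 14.9 to 31.2.

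Of 10 listed amino acid decarboxylases 8 were on the array. Of the 5 tested besides Hdc, 4 rose with age in controls and none fell, against 14.8% and 26.1% of all genes. Gldc, a glycine cleavage enzyme, rose by 2.67 (SE 0.30, limma adjusted p = 1.44e-06), from a mean of 75.5 to 637. Ddc, the decarboxylase of aromatic amino acids, rose by 2.42 (SE 0.26, adjusted p = 7.18e-07). Odc1, which starts polyamine synthesis, rose by 1.81 (SE 0.20, adjusted p = 7.62e-07) and Csad, an enzyme of taurine synthesis, by 0.84 (SE 0.14, adjusted p = 0.000113). Sgpl1 changed by -0.29 (SE 0.12, adjusted p = 0.0647). None of the 5 was called by genotype at 7 days or 1 month, where 3.22% and 0.313% of all genes were. With the litter block Odc1 was called at 1 month (-0.59, limma adjusted p = 0.0309), where 1.38% of all genes were.

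Markers of mast cells, the best known histamine makers, ranged from under 29 to well above it. Of 17 mast cell and basophil genes 15 were on the array and 4 were tested; 4 of the 15 had group means under 29 in all 4 groups, 9 had none under it and 2 had some. Among the brighter ones, the chymase gene Cma1 ran from 47.3 to 122 at 7 days and from 32.6 to 147 at 1 month, the tryptase gene Tpsb2 from 116 to 312 and from 91.8 to 240.2, and the stem cell factor receptor gene Kit from 251 to 351 and from 176 to 296. The mast cell protease genes Mcpt4 and Cpa3 ran from 1.32 to 16.6 and from 16.3 to 67.4 at 7 days, and from 1.64 to 12.4 and from 18.1 to 96.2 at 1 month. The group means of Tpsab1, a tryptase, lay between 5.09 and 6.46, and those of Fcer1a, the IgE receptor chain, between 8.70 and 16.9. Ms4a2, also of this list and picked after its values were seen, ran from 8.56 to 49.9 at 7 days. At 1 month it ran from 3.86 to 28.7, every signal under 29. Its control signals were 22.8 to 44.2 at 7 days, on both sides of 29, and 3.86 to 17.3 at 1 month. No change with age is read from signals this near the floor. The summed signal of the 15 genes was 1700 to 1962 in 7-day controls, 1621 to 2029 in 7-day KO mice, 1377 to 1568 in 1-month controls and 1486 to 1562 in 1-month KO mice. Among the 4 tested, Gata2, a transcription factor gene also used outside mast cells, fell with age by 0.46 (SE 0.12, limma adjusted p = 0.00455), a call lost when each array was centred on its median and when its probe sets were averaged. Kit (-0.34, adjusted p = 0.0696), Srgn (-0.06) and Tpsb2 (-0.05) were not called. Of 8 genes of gastric and enterochromaffin-like cells 4 were tested and none was called by age or genotype. Over all genes 26.1% fell and 14.8% rose with age, and 3.22% were called by genotype at 7 days and 0.313% at 1 month.

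Hdc differed widely between the 7-day litters. The litter means spanned 1.86 on the log2 scale (SD 0.78 over 6 litters), and the median absolute difference between littermates was 0.43. The arrays with the highest Hdc were controls 3 and 4 (2718 and 2864) and KO 3 and 4 (1862 and 1652), from litters 3 and 4, and the remaining arrays lay between 474 and 1039. Litter 3 is female and litter 4 is male. The 2 arrays of litter 4 are also those with the low highest signal, and the part of that in the Hdc values was not tested. Nrep litter means spanned 0.64.

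Genes whose residuals after the fitted group and sex terms most resembled those of Hdc over the 18 arrays were Tent5c (Pearson r = 0.92), Perp (0.91), Mxd4 (0.91), Ddx21 (0.90) and Pitpnc1 (0.90). The residuals share litters, sex and any array effect, and these coefficients are descriptions. Tent5c, a poly(A) polymerase gene, had its highest 7-day signals on the same arrays, 435 and 902 in controls 3 and 4 and 420 and 394 in KO 3 and 4, with 192 to 277 on the others. Genes with the most opposite residuals were picked out after their values were seen and were Aass (r = -0.93), G6pc (-0.92), Ddc (-0.92), Tcn2 (-0.92) and Folr1 (-0.91).

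Aass, which starts lysine breakdown, had signals of 158 and 207 in 7-day controls 3 and 4 and of 209 and 173 in KO 3 and 4, against 343 to 572 on the other 7-day arrays. At 1 month Aass ran from 5947 to 9632. Ddc was 239 and 218 in controls 3 and 4 and 265 and 155 in KO 3 and 4, against 258 to 513 on the other 7-day arrays, so the ranges overlapped, and it ran from 1813 to 2428 at 1 month. G6pc, the glucose-6-phosphatase gene, was 3833 and 3669 in controls 3 and 4 and 4197 and 3326 in KO 3 and 4, against 6337 to 7889 on the other 7-day arrays and 5497 to 8504 at 1 month. Aass and G6pc were picked for residuals opposite to those of Hdc on these same arrays. Nothing more is read from their low signals on the arrays with high Hdc.

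**Figure D4:**
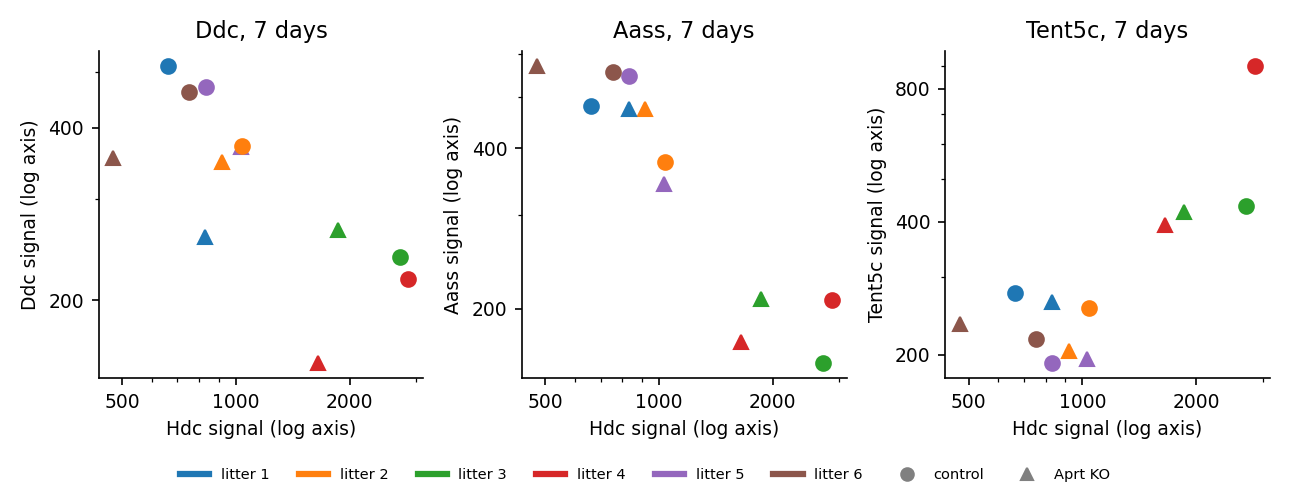
Hdc signal against the signal of Ddc, Aass and Tent5c on the 12 arrays of 7-day kidneys (log axes, intensity units), coloured by litter, with controls as circles and KO mice as triangles. The 4 arrays of litters 3 and 4 have the highest Hdc signals, 1652 to 2864, together with Aass signals of 158 to 209 and Tent5c signals of 394 to 902.

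TGF-beta genes were listed because P311, the product of Nrep, acts on the translation of TGF-beta ligands. Of 22 genes 21 were on the array and 13 were tested, and 11 of these fell with age in controls while none rose, against 26.1% lower and 14.8% higher over all genes. Their median change was -0.71, against -0.11 over all genes. Tgfb1, a ligand, fell (limma adjusted p = 0.000327) to signals of 26.0, 28.4 and 10.7, all under 29, so only a bound can be given, and its 7-day geometric mean was at least 8.66-fold higher. Tgfb3, another ligand, fell by 0.99 (SE 0.22, adjusted p = 0.00145), and by 0.56 as the mean over its probe sets. Tgfbi, a matrix protein induced by TGF-beta, fell by 2.16 (SE 0.18, adjusted p = 3.40e-08), and by 0.86 as the mean over its probe sets (adjusted p = 0.00011). The signal transducer Smad1 fell by 1.23 (SE 0.14, adjusted p = 1.11e-06), the inhibitory Smad6 fell by 0.81 (SE 0.15), and Ltbp4, a latency protein, fell by 1.24 (SE 0.22). The receptor genes Tgfbr1 and Tgfbr2 did not reach the filter.

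By genotype at 7 days 2 of the 13 rose and none fell, where 3.22% of all genes were called. Tgfbi went from a mean of 613 to 1435, a difference of 1.20 (SE 0.15, limma adjusted p = 3.52e-05) that was positive in 6 of 6 litters and called in all 42 alternatives; as the mean over its probe sets it was 0.70. Tgif1, a repressor of Smad targets, differed by 0.51 (SE 0.12, adjusted p = 0.0254), and 12 of the 42 alternatives lost that call, among them those without control 1, 2 or 5 or KO 2, 4 or 5 and that without the 4 arrays whose Aprt signal went against the label (0.39, adjusted p = 0.331). Tgfb1 was 333, 287, 34.9, 748, 281 and 358 in controls and 438, 416, 178, 1070, 636 and 533 in KO mice, higher in the KO mouse of 6 of 6 litters. Its groups overlapped, and the difference was 0.78 (SE 0.38, limma adjusted p = 0.487). That difference passed the threshold in 2 of 42 alternatives, both with the litter as a block (adjusted p = 0.0109 and 0.0364). The share of all genes with the same sign in 6 of 6 litters is not given here. Nrep, in the same litters, was lower in the KO mouse of 5 of 6, with a difference that was not called. At 1 month none of the 13 was called, where 0.313% of all genes were. With the litter block Tgfb1 (limma adjusted p = 0.00821) and Tgfbi (0.53, adjusted p = 0.0483) were called at 1 month, both higher in KO mice. With that block 1.38% of all genes were called. The 1-month Tgfb1 signals were 128, 90.6 and 115 in KO mice, a geometric mean at least 3.79-fold above the controls, whose signals lay under 29.

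Genes of the translation factor eIF3, to one subunit of which P311 binds, were not called by genotype. All 10 subunits on the array were tested, and 3 fell with age in controls, a share near the 26.1% of all genes: Eif3a by 0.59 (SE 0.17, limma adjusted p = 0.0106), Eif3d by 0.45 (SE 0.12, adjusted p = 0.00575) and Eif3c by 0.37 (SE 0.10, adjusted p = 0.00663). Eif3b, the subunit P311 is known to bind, changed by -0.21 (SE 0.11, adjusted p = 0.145). All 3 age calls were lost without 1-month control 1 and when each array was centred on its median, that of Eif3a was also lost without 1-month control 2, and 5 subunits were called without 7-day control 2. The median age change of the 10 was -0.35. None of the 10 was called by genotype at 7 days or 1 month, where 3.22% and 0.313% of all genes were.

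Genes of fibroblasts, myofibroblasts and smooth muscle, cells in which P311 is known, mostly fell between 7 days and 1 month. Of 27 genes on the array 26 were tested; 23 fell with age in controls and none rose, against 26.1% and 14.8% of all genes, and the median change was -2.07. Postn, a matrix protein of activated fibroblasts, fell by 3.92 (SE 0.16, limma adjusted p = 4.46e-12). The microfibril gene Mfap2 fell by 3.58 (SE 0.15) and the smooth muscle actin gene Acta2 fell by 2.96 (SE 0.14). The changes of the collagen genes were -3.73 (SE 0.16) for Col5a2, -3.21 (SE 0.14) for Col3a1 and -3.05 (SE 0.15) for Col1a2. The summed signal of the list was 46715 to 59369 in 7-day controls and 10749 to 12687 in 1-month controls. Its part in the lower Nrep signal at 1 month was not tested.

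By genotype 4 of the 26 rose at 7 days and 7 rose at 1 month, and none fell at either age, where 3.22% and 0.313% of all genes were called. With the litter block these counts were 14 and 12, all higher in KO mice, where 8.7% and 1.38% of all genes were called. The 4 called at 7 days without the block were Cnn1 (1.65, SE 0.29, limma adjusted p = 0.00227), Thy1 (1.39, SE 0.21, adjusted p = 0.000364), Tagln (0.84, SE 0.10, adjusted p = 3.41e-05) and Acta2 (0.47, SE 0.11, adjusted p = 0.0282), of which Cnn1, Tagln and Acta2 encode contractile proteins. The Acta2 call was lost in 11 of 42 alternatives, among them those without 7-day KO 2, 3 or 5 or control 4 or 5. At 1 month Col1a1 rose from 732 ± 117 (SD, n = 3) to 2076 ± 235 (SD, n = 3), a difference of 1.47 (SE 0.23, adjusted p = 0.00653), and Col1a2 rose by 1.10 (SE 0.17, adjusted p = 0.00653). As the mean over its probe sets, the Col1a2 difference was 0.47 and was not called. Col3a1 (1.08), Postn (0.96), Lum (0.90), Mfap2 (0.84) and Dcn (0.83) also rose. The 1-month count was 0 without the 4 arrays whose Aprt signal went against the label. It was 1, 3 and 3 without KO 1, KO 2 and KO 3 and 1, 2 and 4 without control 1, control 2 and control 3. Of the single calls, that of Col1a1 was lost in 7 of 41 alternatives, that of Postn in 17 and that of Mfap2 in 31.

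The summed signal of the list was 62634 to 68551 in 7-day KO mice, above all 6 controls, and 18849 to 20367 in 1-month KO mice, above all 3 controls. The KO and control ranges of Nrep overlapped at both ages, 6348 to 9407 against 7441 to 12186 at 7 days and 467 to 696 against 520 to 576 at 1 month. Whether Nrep differs from the list in its response to genotype was not tested.

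**Figure D5:**
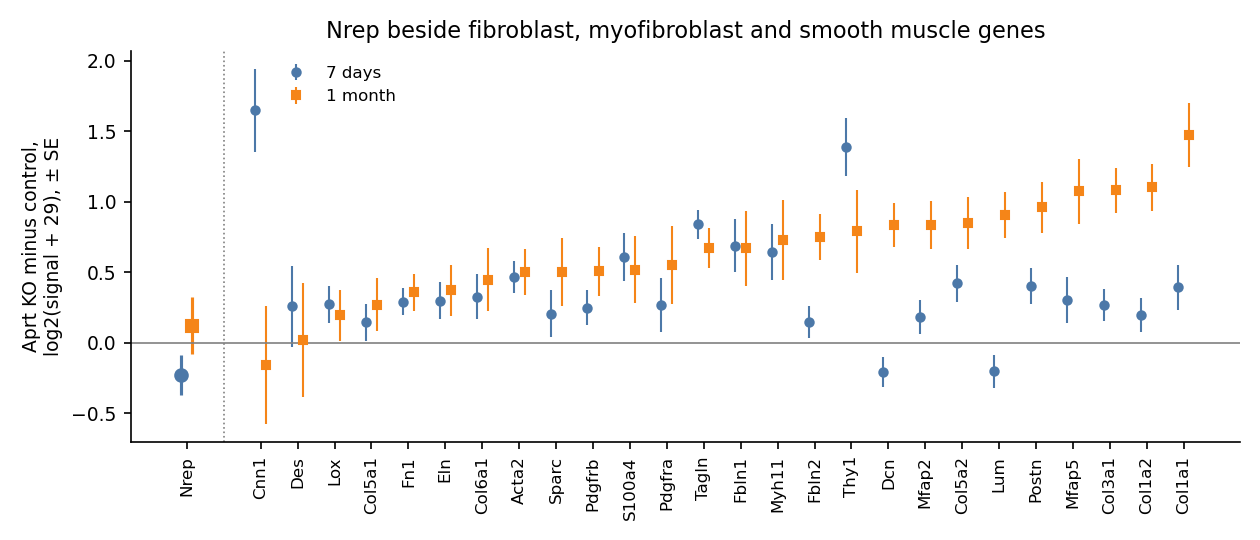
KO minus control difference in log2(signal + 29), with its SE, for Nrep and 26 genes of the fibroblast, myofibroblast and smooth muscle list at 7 days (n = 6 and 6) and at 1 month (n = 3 and 3). Nrep lies at -0.23 and 0.12, while the list's medians are 0.30 at 7 days and 0.67 at 1 month.

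Progenitor and neuronal genes were followed because Nrep is a gene of developing tissue and of neurons. Of 26 nephron and stromal progenitor genes on the array 19 were tested; 11 fell with age in controls and none rose, against 26.1% and 14.8% of all genes, and the median was -1.24. Hoxd11, a renal patterning gene, fell by 3.18 (SE 0.26, limma adjusted p = 2.43e-08) and Tcf21, a regulator of kidney stroma and podocytes, fell by 3.02 (SE 0.15, adjusted p = 3.34e-11). Tcf21 was also the 1 member called by genotype, where 3.22% of all genes were called at 7 days and 0.313% at 1 month. It was higher in 1-month KO mice by 0.96 (SE 0.17, limma adjusted p = 0.0184). That call was lost in 7 of 41 alternatives, among them those without 1-month KO 1, KO 3, control 1 or control 2 (adjusted p from 0.07455 to 0.148). Without the 4 arrays whose Aprt signal went against the label it was also lost (1.01, adjusted p = 0.172). The progenitor sum was 12423 to 17078 in 7-day controls and 3724 to 4549 in 1-month controls, and its part in the Nrep values was not tested.

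Of 16 neuron and Schwann cell genes on the array 7 were tested and 4 fell with age in controls, against 26.1% of all genes. Pmp22, a myelin protein gene, fell by 1.45 (SE 0.10, limma adjusted p = 2.40e-09) and Tubb3, a neuronal tubulin gene, fell by 1.03 (SE 0.23, adjusted p = 0.00150). The neuronal genes Snap25, Syt1 and Prph had group means under 29 in all 4 groups. Uchl1 rose in 7-day KO mice by 0.46 (SE 0.11, limma adjusted p = 0.029), where 3.22% of all genes were called by genotype. That call was lost in 13 of 42 alternatives, among them those without 7-day KO 1, 2, 5 or 6 or control 2, 3 or 4. Without the 4 arrays whose Aprt signal went against the label it was also lost (adjusted p = 0.188). The sum over the 16 genes was 6364 to 9582 in 7-day controls and 4434 to 4918 in 1-month controls.

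Markers of neighbouring or infiltrating tissue were counted for the same arrays. Of 10 tested macrophage genes 9 rose in 7-day KO mice and the remaining one, Mrc1, did not pass (0.70, limma adjusted p = 0.145), against 3.22% of all genes. All 10 were called higher with the litter block, against 8.7% of all genes. Sums over the 13 macrophage genes on the array ran from 7662 to 10881 in 7-day KO mice against 3362 to 5892 in controls. At 1 month none of the 10 was called, where 0.313% of all genes were. All 10 differences were positive at 1 month (median 0.38). The 1-month sums ran from 4111 to 5179 in KO mice against 3173 to 3984 in controls. None of 10 adrenal, 7 fat and 6 skeletal muscle genes tested was called by genotype, where 3.22% and 0.313% of all genes were. Adrenal differences were positive in 0 of 10 genes at 7 days (median -0.41) and 7 of 10 at 1 month (0.73). Those of fat were positive in 3 and 5 of 7, and those of muscle in 2 and 6 of 6. With the litter block the lipoprotein receptor gene Scarb1 of the adrenal list was higher in 1-month KO mice (0.89, limma adjusted p = 0.00263). With age in controls, the adrenal list had 1 gene higher and 1 lower, the fat list 1 higher and the muscle list none. Over all genes 14.8% were higher and 26.1% lower. Sums of these lists varied widely within groups, the adrenal sum from 6449 to 13950 in 7-day controls, and their part in the Hdc and Nrep values was not tested.

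Over all 18 arrays the log2 signal of Hdc was most like that of Thbs2 (Pearson r = 0.98), Efnb2 (0.98), Mest (0.98), Tfdp1 (0.98) and Sfpq (0.97). That of Nrep was most like Tubb5 (0.99), Cks1b (0.99), Apcdd1 (0.98), Fyn (0.98) and Fubp1 (0.98). These coefficients rest on the gap between the ages, which all 10 genes share. The matrix glycoprotein gene Thbs2 had a control age change of -3.76 (SE 0.19, limma adjusted p = 4.09e-11), from 1006 ± 251 (SD, n = 6) to 48.8 ± 15.4 (SD, n = 3), and the imprinted gene Mest one of -3.25 (SE 0.25). For Cks1b, a cell cycle gene, it was -2.81 (SE 0.12), from 1373 ± 89.5 (SD, n = 6) to 182 ± 38.9 (SD, n = 3), and for Apcdd1, a Wnt inhibitor gene, -3.21 (SE 0.14).

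Between themselves, Hdc and Nrep correlated at r = 0.95 over the 18 arrays, and at -0.45 once group and sex were fitted. For Nrep the closest residuals were those of Imp4 (0.92), Ndp (0.90), Xpnpep1 (0.85), Etf1 (0.85) and Hmgn1 (0.84). Ndp, which encodes the secreted ligand norrin, was 446 and 381 in 7-day controls 1 and 2, the arrays with the highest Nrep, and 188 to 347 in controls 3 to 6. Those are also 2 of the 4 arrays whose Aprt signal went against the label.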

How the data were processed

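Each of the 18 mice gave kidney RNA for 1 Affymetrix array. The submitters' processing notes name GCOS and MAS5 as the programs behind the deposited intensity values. Neither a version nor a scaling target is given in the sources used here. The trimmed mean of each array lay between 500.2 and 500.4. No further normalization was applied. Arrays have no read depth, and their number limits the precision.

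Of 12488 probe sets, 10833 had 1 gene symbol, for 8251 genes. The brightest probe set of each gene was kept, and 5744 genes with a mean signal of at least 118.6, the 40th percentile, were tested as log2(signal + 29) with limma 3.58.1 in R 4.3.3. The model had 4 groups and a sex term per age (12 residual degrees of freedom, 5.7 prior), with two-sided tests and Benjamini-Hochberg adjustment over the 5744 genes at 0.05. p-values measure the spread between these mice. The 95% intervals are those of single genes. The code was tested on simulated data. Figures used matplotlib 3.10.9.

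The members and the 15 gene lists were chosen with earlier results of these data known. Named genes were up to 6 called members of a list with the smallest p in the contrast described, or its brightest members, and the 5 genes most like each member. Members named outside that rule, such as Eif3b, Tgfb3, Hrh1, Hrh2, Hal, Mcpt4, Cpa3, Tpsab1, Fcer1a, Tgfbr1, Tgfbr2, Esr1, Esr2, Pgr, Snap25, Syt1, Prph, Mrc1, the genes called with the litter block alone and the genes with opposite residuals, were chosen after their values were seen. In the 9 littermate pairs that the labels name, both mice departed from their groups together (r from 0.239 to 0.673 over genes), and the litter was used as a block in alternatives.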

Additional observations from a re-analysis of the deposited data

Results flagged for a closer look

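The check of the labels gave 1 value far from its group. Among the 6 Aprt KO mice at 7 days, the Aprt signal of KO 4 was 135.4 while the others ran from 41.9 to 58.1, and its gap to the nearest mouse was 0.756 of the group's range on the log2 scale. A rule of this kind flags about 1 in 20 groups by chance, and 12 groups were looked at. The Hdc signal of that array was 1652 and its Nrep signal 6348.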

How the results depend on the processing

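None of the genotype, age-by-genotype or sex tests of Hdc and Nrep passed the threshold under any alternative that was run. With the litter pair as a replicate block, Hdc differed by -0.25 (adjusted p = 0.355) and Nrep by -0.23 (adjusted p = 0.116) at 7 days. The sign of a difference turned in these cases, and the cause was not tested. Without the 4 arrays whose Aprt signal went against the label, Nrep KO minus control was 0.0016 at 7 days and -0.017 at 1 month, the difference between ages was -0.018, and male minus female at 1 month was 0.13 for Nrep and 0.16 for Hdc. Male minus female was 0.044 for Hdc at 1 month with a pseudocount of 1, and 0.054 for Nrep at 7 days after quantile normalization. Leaving out single arrays or litters, the ranges were -0.44 to 0.054 for Hdc genotype at 7 days, -0.90 to 0.059 and -0.17 to 0.16 for Hdc sex at 7 days and 1 month, -0.017 to 0.33 for Nrep genotype at 1 month, and -0.28 to 0.036 and -0.28 to 0.13 for Nrep sex at 7 days and 1 month. The omission of litters was chosen after seeing the data. Where an array was left out and its littermate was kept, litter level and genotype are mixed in the genotype values. The Hdc age change depends on the pseudocount because the 1-month signals lie under 29: it was -6.77 in controls and -6.10 in KO mice with a pseudocount of 1, and -3.46 and -3.18 with the 40th percentile. Genes called by genotype numbered 97 to 522 at 7 days (185 as reported; 500 with the litter block) and 1 to 117 at 1 month (18; 79), those called for the difference between ages 7 to 142 (23; 93), those called by sex at 1 month 6 to 248 (159), and those called with age in controls 1431 to 2721 (2348).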
